A study of Homo sapiens with 8 samples.

Results

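MYC encodes a transcription factor that drives growth and division, and in blood cells it is controlled from far away: the gene sits in a long stretch with few protein-coding genes whose enhancers reach it over large distances. PVT1, the long non-coding RNA gene just telomeric of MYC, is often gained together with it in cancer, and its promoter can compete with that of MYC for enhancers. A cluster of enhancers used by blood stem cells and by leukaemias lies far telomeric, beyond PVT1. H3K27me3, trimethylation of lysine 27 on histone H3, is laid down by PRC2, a Polycomb complex. It lies in broad domains over silent genes and silent desert, and is kept off active promoters and transcribed gene bodies.

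The MYC locus was taken here as 3.5 Mb of band 8q24.21, chromosome 8, 127500001 to 131000000 (GRCh37). Its members are the H3K27me3 peaks that touch it, 845 of 466744 peaks over 4 deposited lists: 182 in AC220 1, 260 in AC220 2, 212 in DMSO 1 and 191 in DMSO 2. The locus was selected on earlier results of the same lists, in which its band was covered less with AC220, so every AC220 against DMSO value of covered length below is a description and carries no test. The treated cells are MOLM14, an established human acute myeloid leukaemia line driven by an internal tandem duplication in the receptor tyrosine kinase FLT3 and by a KMT2A fusion, exposed for 24 h to quizartinib (AC220), an inhibitor of FLT3; the control cells of the same line had the solvent DMSO. Of the 8 samples, 4 are immunoprecipitated libraries, 2 per treatment, and 4 are inputs with no values used here. Expression was not measured here, and a single cell line stands for the disease.

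The libraries numbered 2 stand apart from those numbered 1. Their lists covered 2.59 times (AC220) and 2.55 times (DMSO) the length of the lists numbered 1, so values are compared within set 1 (AC220 1 and DMSO 1) and within set 2 (AC220 2 and DMSO 2). Over the main chromosomes the AC220 list was the shorter, by 17.2% in set 1 and 15.9% in set 2, and that general difference stands behind every local value. Read depth is unknown, and a stretch without a peak may be free of the mark or marked too weakly to be called. Less mark in every cell and fewer marked cells cannot be told apart in such data.

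MYC itself lay in a gap between marked stretches under both treatments. No peak covered the MYC start, placed at 128748 kb, in any of the 4 libraries. On the centromeric side the nearest peak ended 17.4 kb before the start in AC220 1 and 11.0 kb before it in AC220 2, against 14.4 kb in DMSO 1 and 11.3 kb in DMSO 2. On the telomeric side the nearest peak began 9.36 kb and 9.51 kb after the start in AC220 1 and AC220 2, against 10.7 kb and 9.94 kb in DMSO 1 and DMSO 2. The 4 centromeric edges fell within 6.44 kb of each other (128730609 to 128737049) and the 4 telomeric edges within 1.34 kb (128757358 to 128758700). The peak-free stretch around the gene was thus 26.7 kb and 20.5 kb long with AC220 and 25.1 kb and 21.2 kb long with DMSO, a range in which the treatments overlap.

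PVT1 was without a single peak. Over its 307 kb (128807 to 129114 kb) the covered share, meaning the percentage of bases inside a peak, was 0% in AC220 1, AC220 2, DMSO 1 and DMSO 2. The empty stretch ran past both ends of the gene. It measured 327.3 kb in AC220 1 and 317.1 kb in AC220 2, against 326.3 kb in DMSO 1 and 317.8 kb in DMSO 2. In all lists combined it was 315.6 kb long (128805824 to 129121391). Of 140848 stretches between peaks of any library on chromosomes 1 to 22 and X, 1122 were at least as long. That count takes in gaps of any length. In steps of 50 kb, 41.5% of those chromosomes held no peak in any library, against 32.9% of the locus, so empty sequence was common.

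**Figure D1:**
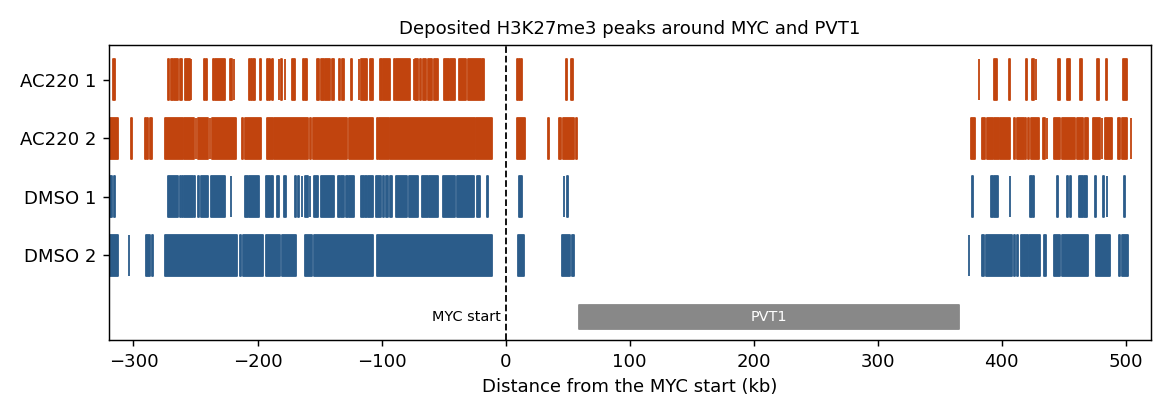
Deposited H3K27me3 peaks of each library (rows) against the distance from the MYC start in kb, with PVT1 as a grey bar and the MYC start as a dashed line; each coloured block is a peak. In all 4 libraries peaks stop 11.0 to 17.4 kb before MYC, none lies over PVT1, and small islands lie between the genes.

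Between MYC and PVT1 the mark was present as small islands. In the 49 kb from 10 kb after the MYC start to the start of PVT1 the covered share was 8.30% in AC220 1 and 35.8% in AC220 2, against 8.12% in DMSO 1 and 27.3% in DMSO 2. As deposited, AC220 was higher in both sets, by 0.18 and 8.56 percentage points, and the gap between sets was larger than either. In set 1 the direction turned at a -log10 q of at least 2 (-0.61 points), with joined peaks (-0.18 points) and with peaks of at least 2 kb (-5.20 points), while set 2 stayed higher with AC220. With lists trimmed to equal length within each set, AC220 was higher by 1.46 and 21.7 points. With all lists at equal length it was higher by 1.46 and 10.8 points. An island of 5.92 kb just beyond MYC (128757358 to 128763274) was covered over 27.6% in AC220 1 and 97.4% in AC220 2, against 43.1% in DMSO 1 and 81.2% in DMSO 2, in opposite directions in the sets. An island of 23.5 kb ending just before PVT1 (128782319 to 128805823) was covered over 11.6% and 52.3% with AC220, against 6.09% and 36.7% with DMSO. Its share was higher with AC220 in both sets, through 2.73 kb against 1.43 kb in set 1 and 12.3 kb against 8.62 kb in set 2. The MYC window itself, from 5 kb before to 10 kb after the start, held only the outer edge of the nearer island: 1.99% and 3.26% with AC220, against 0% and 0.42% with DMSO.

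Centromeric of MYC lay the main domain of the locus. From 128473650 to 128737049 (263.4 kb, ending 11.0 kb before the MYC start) the covered share was 43.1% in AC220 1 and 88.5% in AC220 2, against 57.4% in DMSO 1 and 92.5% in DMSO 2. The widest peak of the locus in DMSO 2, 92.5 kb wide (128644202 to 128736734) and the 103rd widest of that list, abutted the gap at MYC. AC220 2 covered 96.5% of it with 4 peaks. AC220 1 covered 62.0% of it with 15 peaks, and DMSO 1 covered 66.8% with 12. The widest peak in AC220 2, 68.4 kb (128655012 to 128723444), the 100th widest of its list, lay in the same place. The widest peak of DMSO 1 (14.1 kb, 128708742 to 128722831) and that of AC220 1 (11.0 kb, 128717571 to 128728571) lay there too. The widest single peak of the locus thus lay in the domain next to MYC in each library. With peaks under 3 kb apart joined, this no longer held in AC220 1, where the widest joined block was 27.2 kb in the telomeric desert, against 23.6 kb in the centromeric desert. By the authors' fold enrichment, which is set against the background of each library, these widest peaks stood at 2.91 in AC220 1, 2.65 in AC220 2, 3.42 in DMSO 1 and 2.64 in DMSO 2. Each lay above the median fold of its own list, which was 2.67 in AC220 1, 2.13 in AC220 2 and 2.85 in DMSO 1.

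**Figure D2:**
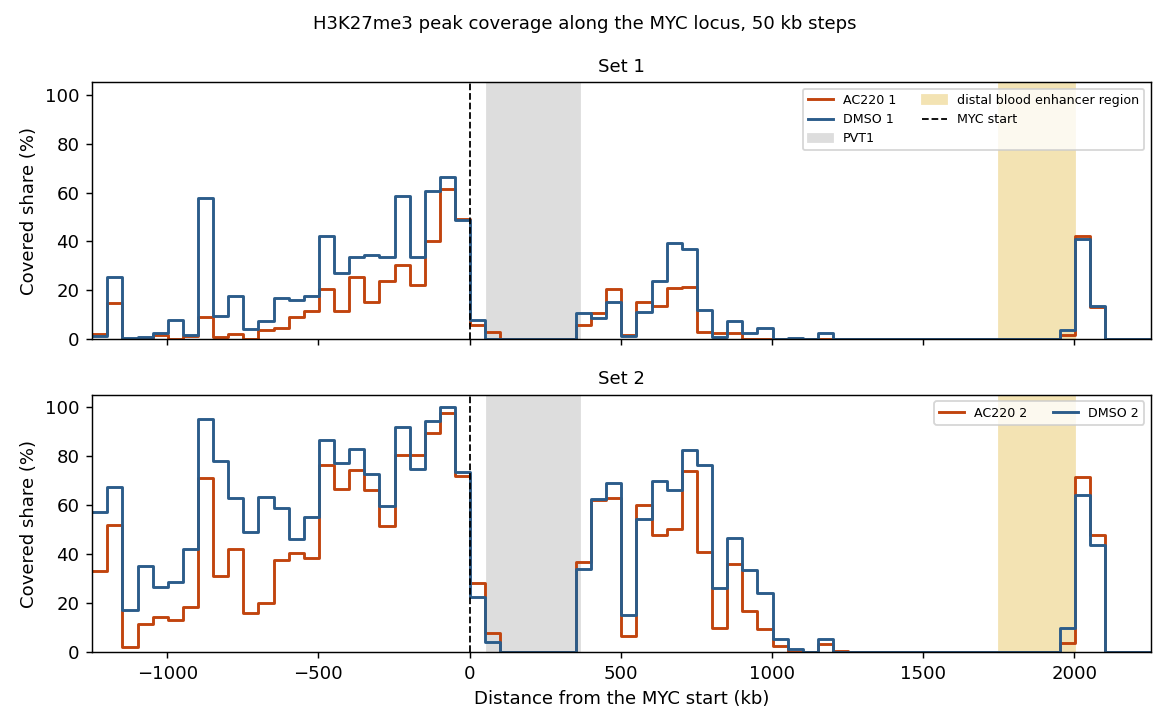
Covered share in percent for 50 kb steps against the distance from the MYC start in kb, set 1 above and set 2 below, with AC220 in red and DMSO in blue; PVT1 is shaded grey and the distal blood enhancer region yellow. Coverage varies along the centromeric side, is highest in the step from -98 to -48 kb in each library, and drops to 0% inside PVT1. The AC220 line lies below the DMSO line most, on the mean of both sets, in the step from -898 to -848 kb.

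Over the whole locus the covered share was lower with AC220 in both sets. It was 7.80% in AC220 1 and 26.8% in AC220 2, against 12.5% in DMSO 1 and 34.5% in DMSO 2, which is 37.5% lower in set 1 (log2 ratio -0.68) and 22.3% lower in set 2 (-0.36). Averaged over libraries it was 17.3% ± 13.4 with AC220 and 23.5% ± 15.6 with DMSO (SD, n = 2 each), a difference smaller than the spread between libraries of the same treatment. With 2 libraries against 2 no exact permutation test could give a two-sided p under 0.333. Among peaks with a -log10 q of at least 2 the direction in set 1 turned, at 2.89% in AC220 1 against 2.39% in DMSO 1, while set 2 stayed lower with AC220, at 18.7% against 28.0%. Nothing in the labels says that libraries of the same treatment came from separate cultures.

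The centromeric desert carried most of that difference. On that side of MYC, RefSeq's gene order (GRCh38.p14, order only) lists LRATD2, the non-coding RNA genes PCAT1, CCAT1 and CASC8, the POU5F1 retrogene POU5F1B and, next to MYC, the non-coding CASC11. The stretch, 1243 kb long, was covered over 14.5% in AC220 1 and 48.1% in AC220 2, against 25.3% in DMSO 1 and 64.3% in DMSO 2. That is 42.5% and 25.1% lower. The telomeric desert, 1886 kb beyond PVT1, was covered over 4.67% and 17.1% with AC220, against 6.30% and 21.0% with DMSO, or 25.8% and 18.6% lower. As deposited, AC220 was lower in both deserts within each set, and the libraries of set 2 lay above those of set 1 whatever the treatment. At a -log10 q of at least 2, set 1 turned in both deserts, at 6.16% in AC220 1 against 4.79% in DMSO 1 on the centromeric side and 1.18% against 1.14% on the telomeric side.

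**Figure D3:**
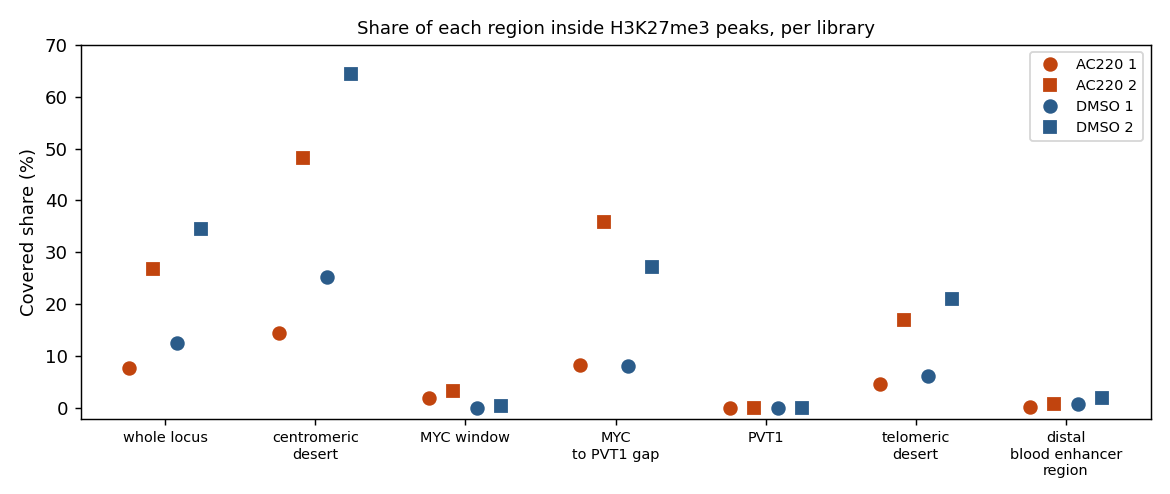
Covered share in percent (vertical axis) of the whole locus and its regions, a point per library, with AC220 in red, DMSO in blue, circles for set 1 and squares for set 2. The deserts hold nearly all coverage, PVT1 is at 0% in 4 of 4 libraries, and the regions with higher AC220 points in both sets are the MYC window and the gap to PVT1.

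Within 1000 kb of MYC, the fall with AC220, as a percentage of the DMSO share, was smaller or absent in the bins beside MYC and PVT1. These bins of 250 kb were chosen after the profile had been seen. In the bin that ends at the MYC start the share was 40.6% in AC220 1 and 84.3% in AC220 2, against 53.7% in DMSO 1 and 87.7% in DMSO 2, which is 24.3% and 3.89% lower. The next bin outward was 43.5% and 11.0% lower, the bin from -750 to -500 kb 54.3% and 43.9% lower, and the bin from -1000 to -750 kb 86.1% and 43.0% lower. In that bin, the outermost on this side, the shares were 2.61% and 34.7% with AC220, against 18.8% and 60.8% with DMSO. The desert went on beyond it to -1248 kb, outside the bins. There the stretch from -1126 to -1001 kb was 52.3% lower in set 1 and 64.8% lower in set 2. In set 1 it was hardly covered, at 0.74% with AC220 against 1.54% with DMSO, and in set 2 it stood at 10.9% against 31.0%. The stretch from -1248 to -1145 kb was 37.1% and 32.4% lower, so the difference did not keep growing to the edge. On the telomeric side, the bin 0 to 250 kb from the start was little covered and higher with AC220. It stood at 1.75% and 7.22% with AC220, against 1.59% and 5.37% with DMSO. As deposited, the bin 250 to 500 kb away, across the end of PVT1, differed little: 7.16% and 32.1% with AC220, against 6.93% and 32.5% with DMSO. With lists trimmed to equal length within each set, DMSO fell to 3.87% and 29.1% there, below AC220 in both sets. With all lists at equal length this bin stood at 7.16% and 2.64% with AC220, against 3.87% and 0% with DMSO. The bin 500 to 750 kb away was 33.0% and 17.7% lower, and the bin 750 to 1000 kb away 69.3% and 44.6% lower. This did not go on to the end of the locus: the farthest bin, 2000 to 2250 kb away, stood at 11.1% and 23.9% with AC220, against 11.0% and 22.4% with DMSO. In percentage points the sets differed: from the bin beside MYC outward set 1 stood at -13.1, -14.9, -6.92 and -16.1 points, with no steady order, and set 2 at -3.42, -8.28, -24.2 and -26.1 points. With all lists at equal length set 2 stood at -8.33, -24.96, -1.04 and -16.5 points, also with no steady order. The domain nearest MYC was also the most fully covered with DMSO, and the part of coverage level in this gradient was not tested.

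**Figure D4:**
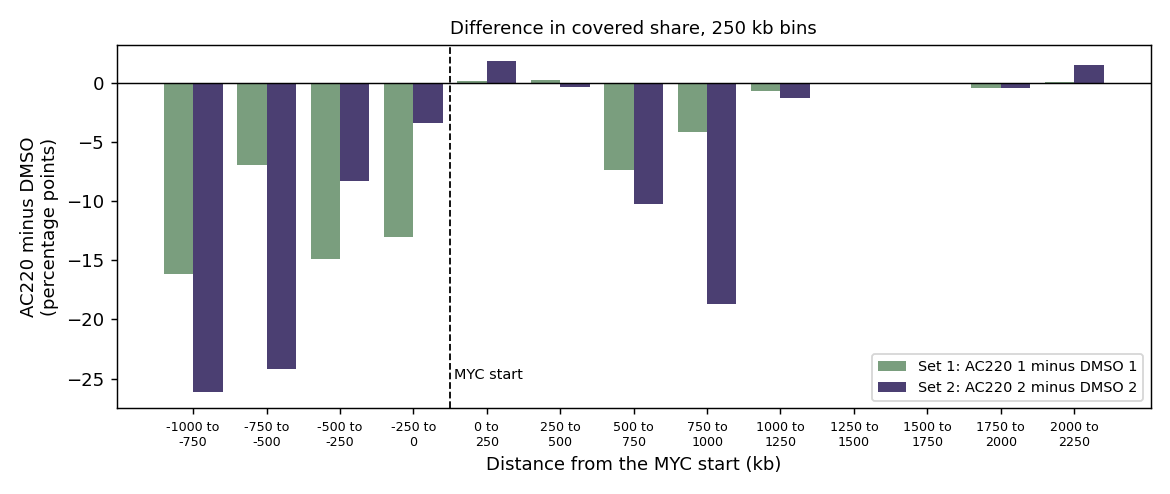
AC220 minus DMSO difference in covered share, in percentage points, for 250 kb bins by distance from the MYC start in kb, with green bars for set 1 and purple bars for set 2. Bars reach -16.1 and -26.1 points at 750 to 1000 kb on the centromeric side, and lie between -0.35 and 1.85 points in the bins from 0 to 500 kb.

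Steps of 50 kb gave the same picture at finer grain. Of 70 steps, 47 held a peak in at least 1 library, and 32 of those 47 were lower with AC220 in both sets, against 39.5% of covered steps on chromosomes 1 to 22 and X. Only 3 of 47 were higher in both, against 9.46% over all those chromosomes. The median difference over covered steps was -4.63 points in set 1 and -9.94 points in set 2, against -0.07 and -3.31 points over all covered steps. Of the 24 steps centromeric of MYC, 22 were lower in both sets and none was higher in both. By at least 10 percentage points in both sets, 8 of the 70 steps were lower, against 2.9% of all 60716 steps, and none was higher, against 0.0412%. Of those 8 steps, 6 lay centromeric of MYC and 2 beyond PVT1. Because the locus was selected for this contrast, these counts describe it and are no evidence for it. The locus was also covered more than chromosomes 1 to 22 and X, with DMSO 12.5% and 34.5% against 7.63% and 19.4%. Differences in points can be larger where more is covered, so neither these counts nor those of 5 kb windows have an equal background.

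The step with the largest difference lay centromeric of MYC, from -898 to -848 kb relative to its start (127850001 to 127900000). Its covered share was 9.09% in AC220 1 and 71.0% in AC220 2, against 57.6% in DMSO 1 and 95.1% in DMSO 2. The differences were -48.5 points in set 1 and -24.06 points in set 2, and the mean of both, -36.3 points, was the lowest of all 60716 steps on chromosomes 1 to 22 and X. In set 1 alone the step ranked 2nd and in set 2 alone 1316th. These ranks are on the contrast for which the locus was selected, so they only describe the step. The widest peak touching it was 1.10 kb in AC220 1 and 9.29 kb in AC220 2, against 8.73 kb in DMSO 1 and 29.2 kb in DMSO 2. With all lists cut to equal length it was 9.09% and 0% with AC220, against 53.3% and 55.1% with DMSO. The adjoining step, from -848 to -798 kb, stood at 0.96% and 31.0% with AC220, against 9.55% and 77.9% with DMSO. The third, from -698 to -648 kb, stood at 3.70% and 20.1%, against 7.57% and 63.3%. In both of these the difference came mostly from set 2, at -46.9 and -43.2 points, against -8.59 and -3.87 points in set 1. With all lists at equal length the third step lost its difference, at 0.15 points in set 1 and 0% in both libraries of set 2. The 3 steps highest with AC220 differed by far less: 5.01 points on average at 552 to 602 kb telomeric, 4.25 at 2002 to 2052 kb, and 3.21 at 52 to 102 kb, across the start of PVT1. With all lists at equal length, the first of these was lower with AC220 in set 2 (-2.76 points) and so was the second (-0.80 points). Between the sets, the 47 differences had a Pearson correlation of 0.24, a description over neighbouring steps that share libraries.

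Windows of 5 kb were also compared. None of 700 windows had both DMSO shares above both AC220 shares by at least 25 points, or the reverse, against 0.0883% of all windows lower and 0.0171% higher by that rule, shares so small that a count of 0 says nothing particular of the locus. With all lists at equal length the rule called 19 windows lower and 1 higher. With the difference taken within each set, 17 windows were lower by at least 25 points in both sets, against 0.724% of all windows, and 1 was higher, against 0.105%. Of the 17 lower windows, 13 lay in the centromeric desert and 4 in the telomeric desert, and the one nearest MYC ran from -128 to -123 kb. The 1 higher window lay from -173 to -168 kb and was covered over 45.3% and 100% with AC220, against 18.8% and 73.6% with DMSO.

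Within each set, bases marked with DMSO and not with AC220 outnumbered the reverse. In set 2, AC220 2 peaks covered 69.6% of the bases that DMSO 2 marked on the locus, and 89.6% of AC220 2 bases were marked in DMSO 2. In set 1, AC220 1 peaks covered 41.1% of DMSO 1 bases, and 65.8% of AC220 1 bases were marked in DMSO 1. Over chromosomes 1 to 22 and X, the kept shares of DMSO bases were 72.6% in set 2 and 56.2% in set 1. Wide peaks were fewer with AC220 in set 2, on the locus and in the whole lists alike. Peaks of at least 10 kb numbered 2 in AC220 1 and 19 in AC220 2, against 3 in DMSO 1 and 36 in DMSO 2, and they held 7.95% and 38.5% of the covered length with AC220, against 8.10% and 62.7% with DMSO. By number, such peaks made up 1.10% and 7.31% of the peaks on the locus with AC220, against 1.42% and 18.8% with DMSO. Over the whole lists they made up 1.65% and 7.65% of peaks with AC220, against 2.53% and 12.5% with DMSO. Only in DMSO 2 was the locus above its list. The median width on the locus was 941 bp and 1371 bp with AC220, against 1157 bp and 3082 bp with DMSO. The corresponding medians of the whole lists were 996 bp and 1612 bp, against 1211 bp and 2321 bp. All 4 libraries shared 176.2 kb of the locus, 13.4% of the 1313 kb covered in any, against 19.0% over all chromosomes. The AC220 pair alone covered 5.80 kb, or 0.44% of that length, and the DMSO pair alone 32.6 kb, or 2.48%. Over all chromosomes the AC220 pair alone held 0.52% and the DMSO pair alone 1.76%, so the larger DMSO share was general.

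From 1000 kb beyond the MYC start, the telomeric side was nearly empty apart from 1 island. RefSeq's order beyond PVT1 lists non-coding RNA genes up to CCDC26, then GSDMC, a gasdermin gene, and CYRIB. The distal blood enhancer region (130500 to 130750 kb), 1752 to 2002 kb beyond the MYC start, was covered over 0.33% in AC220 1 and 0.78% in AC220 2, against 0.76% in DMSO 1 and 1.94% in DMSO 2. Most of it lay in the longest empty stretch of the locus, which ran for 766.1 kb without a peak in any library (129959295 to 130725353). Of 140848 such stretches on chromosomes 1 to 22 and X, gaps of any length included, 179 were at least as long. Of the 50 kb steps on those chromosomes, 41.5% held no peak in any library. In AC220 1 the empty stretch was longer, 1123 kb, and began 876 kb after the MYC start. The other lists held peaks beyond that point. From 129662954 to 129728809 these covered 38.5% in DMSO 2, 18.4% in AC220 2 and 4.41% in DMSO 1. What little coverage the enhancer region had came from its telomeric end, where an island began. That island (130742099 to 130831044, 88.9 kb) was covered over 32.1% in AC220 1 and 66.4% in AC220 2, against 33.0% in DMSO 1 and 66.3% in DMSO 2. It differed by less than 1 percentage point between treatments in either set, and held the strongest peak of the locus by q in DMSO 2 (130766017 to 130787472, fold enrichment 2.84).

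Set beside its surroundings, the locus was lower with AC220 by more than the genome as a whole, though not by more than everything near it. Chromosomes 1 to 22 and X together were 17.2% lower in set 1 and 15.9% lower in set 2, and the rest of chromosome 8 was 26.1% and 18.1% lower. The remainder of band 8q24.21, 0.7 Mb just outside the locus, was 42.8% and 27.7% lower, at 4.29% and 15.8% with AC220, against 7.50% and 21.8% with DMSO. The centromeric neighbour 8q24.13 was 26.7% and 12.9% lower, and the telomeric neighbour 8q24.22 was 32.4% and 21.9% lower. Relative to all chromosomes the log2 ratio of the locus was lower by 0.41 in set 1 and by 0.11 in set 2. Areas of the same library are not replicates, and these differences were not tested.

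**Figure D5:**
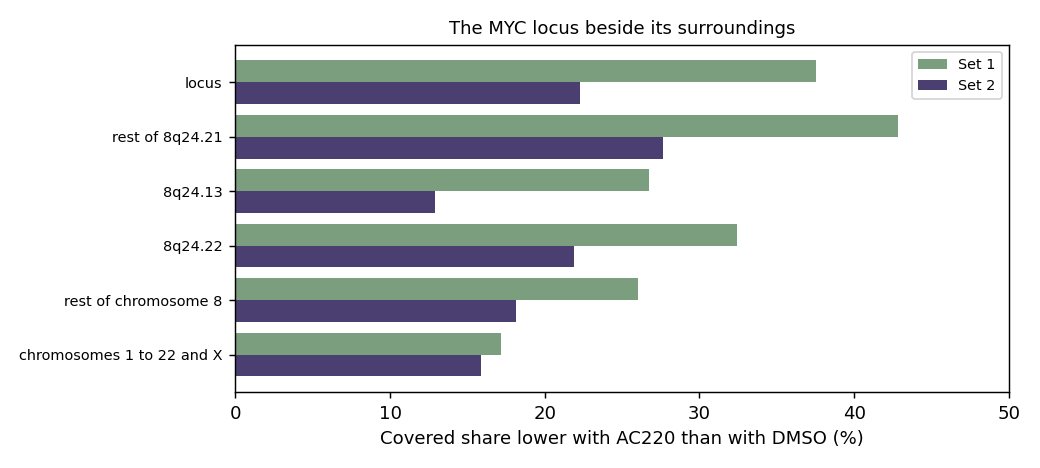
Percentage by which the covered share was lower with AC220 than with DMSO (horizontal axis) for the MYC locus, the rest of its band, the neighbouring bands, the rest of chromosome 8 and chromosomes 1 to 22 with X, with green bars for set 1 and purple bars for set 2. The locus bars, 37.5% and 22.3%, lie above the genome-wide bars, 17.2% and 15.9%, and below those of the rest of 8q24.21.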

How the data were processed

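H3K27me3 ChIP-seq libraries of MOLM14 cells were analysed through 1 deposited broad peak list each. Tools per the submitters' processing notes, which give no settings or roles, were MACS2 2.1 and BWA 0.7.10-r789. The labels name no genome build, while the definition of the locus is in GRCh37. The authors deposited, for each peak, positions, a score (10 times the -log10 q, rounded down), a fold enrichment ratio over the library's background, and p and q as -log10, all within the library. Drosophila cells were added per the labels; the lists carry no such scaling and no counts. The highest peak end on chromosome 8, 146300624, lay within the GRCh37 length of that chromosome (146364022, from circlize 0.4.16 in R 4.3.3). Positions of MYC, PVT1 and the enhancer region came with the definition of the locus; positions count from 1.

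Shares were computed in Python 3.11.15 (pandas 2.3.3, numpy 2.4.6; figures in matplotlib 3.10.9). Windows of 5 kb and steps of 50 kb tiled chromosomes 1 to 22 and X. The 5 kb window calls were run on simulated lists with known answers, which checked the code only. In those lists the planted differences were far above the call minimum, and the sets were built alike. Named items are MYC, PVT1, the 3 steps of largest difference in each direction with the same sign in both sets, and the widest peaks. Members, regions and lists were chosen with earlier results of these data known; islands and 250 kb bins were chosen after the profile was seen. No test was run. Alternatives were trimming lists to equal length (highest q kept), q minima, joining peaks under 3 kb apart, a 2 kb minimum width, other call minima, shifted windows and leaving out libraries.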

Additional observations from a re-analysis of the deposited data

How the results depend on the processing

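No paired analysis was possible because the locus was chosen on this contrast and its values therefore come from no test. Differences within each replicate number are given as descriptions. Within each number, with lists trimmed to equal length, the log2 ratio of the locus was -0.30 on average (-0.42 in set 1 and -0.19 in set 2), and with all lists at equal length -0.54. Keeping -log10 q of at least 2 gave 0.28 in set 1 and -0.58 in set 2, opposite directions; at 5 or more only DMSO 2 had peaks on the locus and no ratio could be had. Leaving out a single library unbalances the sets: the log2 ratio then ran from -1.41 to 0.37 for the locus, from -1.47 to 0.26 for the centromeric desert and from -1.30 to 0.57 for the telomeric desert, higher with AC220 without AC220 1 or without DMSO 2 (0.21, 0.07 and 0.50). For the gap to PVT1 it ran from -9.40 to 18.1 points, reversed without AC220 2 or DMSO 1 (-5.21), and with peaks of at least 2 kb it was -1.43. That gap, 4.37 points as deposited, gave 11.6 with lists trimmed within numbers and 6.11 with all lists at equal length. The MYC window, 2.41 points as deposited, gave 1.42 at -log10 q of at least 2 or with peaks of at least 2 kb, 0 at 5, 3.56 with joined peaks and 0.52 with 50 kb to either side. The enhancer region gave 0 at 5. PVT1 stayed at 0% in the 4 lists under the alternatives run. Lower steps of 50 kb numbered 19 at a minimum of 5 points, 1 at 20 and 4 with lists trimmed within numbers. Windows lower by separation numbered 9 at 10 points, 19 with all lists equal and 1 when shifted, and 1 was higher with all lists equal. Within sets, lower windows numbered 57 at 10 points, 0 at 50 and 10 with trimming within numbers; higher ones 8, 0 and 2, and 0 when shifted. Joining peaks left 99, 112, 115 and 90 peaks in AC220 1, AC220 2, DMSO 1 and DMSO 2. Relative to all chromosomes the locus stood at -0.26 (log2), and at -0.54 with all lists equal. The unknown read depth limits every value; the cause of these shifts was not tested.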

Other observations

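The strongest peak of the locus by q lay in the domain centromeric of MYC in both AC220 libraries and telomeric of PVT1 in both DMSO libraries. In AC220 1 it was a peak of 0.665 kb, beginning at -205 kb from the MYC start (128542532 to 128543196), and in AC220 2 a peak of 12.9 kb at nearly the same place (128538229 to 128551080). In DMSO 1 it was a peak of 1.08 kb, 751 kb telomeric of MYC (129499070 to 129500146), and in DMSO 2 the peak in the far telomeric island. These peaks ranked 1471st, 2491st, 1449th and 2187th by q in their lists, in the order AC220 1, AC220 2, DMSO 1 and DMSO 2. They are 1 peak per library, and in set 1 their -log10 q was close, 3.28 in AC220 1 and 3.24 in DMSO 1. Of the peaks on the locus, 13.7% in AC220 1 and 8.46% in AC220 2, against 6.13% in DMSO 1 and 13.6% in DMSO 2, belonged to the top 10% of their list by q, with no common direction. By count, more of these lay in the centromeric than in the telomeric desert, which held fewer peaks. The counts were 18 and 7 in AC220 1, 16 and 5 in AC220 2, 7 and 6 in DMSO 1, and 18 and 8 in DMSO 2. As a share of the peaks of each desert they made up 16.1% and 10.8% in AC220 1 and 11.0% and 4.59% in AC220 2. With DMSO the shares were 5.38% and 7.59% in DMSO 1, the other way, and 15.4% and 11.3% in DMSO 2.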
